A study of Mus musculus with 10 samples.

Results

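Keratins are the intermediate filament proteins of epithelia, and the mouse genes named Krt followed by a number were followed here in cochlear RNA. Of 18193 mouse genes with a probe set of their own on the array, 48 carried such a name, current or older, and each was read from its brightest probe set by mean log2(signal + 16) over all arrays. These 48 genes had 61 probe sets in all, and 9 of them had more than 1. Krt9, Krt39, Krt40, Krt74, Krt87 and Krt90 were not analysed here. The first group was 5 cochlea samples of male Polg D257A/D257A mice aged 9 months, homozygous for the D257A form of the mitochondrial DNA polymerase Polg, a form without proofreading that lets mitochondrial DNA gather mutations. The second was 5 cochlea samples of male wild-type (WT) Polg+/+ mice of the same age. All animals shared a specific pathogen-free facility and a nonpurified diet, per the labels. Whether the 5 numbered samples of a group came from separate animals is not stated, and the design text speaks of no replicates. The p-values below therefore measure the spread between these samples, which may be technical, and the number of arrays limits the precision.

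A keratin filament is built from a type I and a type II chain, and different epithelia use different partners. Krt5 and Krt14, with Krt15, are the keratins of the dividing basal layer of stratified epithelia. Krt1 and Krt10 replace them in the suprabasal layers of skin, Krt4 and Krt13 in those of internal mucosa, and Krt8 and Krt18 serve single-layered epithelia. In the ear, simple keratins are known from the epithelium that lines the cochlear duct. Keratins of stratified epithelia are found in skin such as that of the external canal, but not in skin alone. The genes lie in 2 clusters: the type I genes on chromosome 11 (24 of the 48 here) and the type II genes on chromosome 15 (23 here), where the type I gene Krt18 also lies, beside Krt8.

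The windows around the annotated start sites of 4 members are shown because the text below turns on these genes: Krt5, Krt10 and Krt77 were wholly lower in D257A cochleae and Krt8 was not. Each runs from 250 bases before to 50 bases after the start, 5′ to 3′ on the minus strand of GRCm38.p6, from RefSeq, with the letters TATAAA (either strand) in capitals. The Krt5 window is chr15:101712856-101713155, the Krt10 window chr11:99389315-99389614, the Krt77 window chr15:101869656-101869955 and the Krt8 window chr15:102004293-102004592.
Krt5: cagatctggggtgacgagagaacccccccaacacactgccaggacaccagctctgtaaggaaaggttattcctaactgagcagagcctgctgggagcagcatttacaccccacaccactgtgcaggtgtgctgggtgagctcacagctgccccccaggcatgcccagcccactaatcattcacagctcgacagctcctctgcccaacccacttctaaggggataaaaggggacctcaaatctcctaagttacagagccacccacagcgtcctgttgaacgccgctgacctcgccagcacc
Krt10: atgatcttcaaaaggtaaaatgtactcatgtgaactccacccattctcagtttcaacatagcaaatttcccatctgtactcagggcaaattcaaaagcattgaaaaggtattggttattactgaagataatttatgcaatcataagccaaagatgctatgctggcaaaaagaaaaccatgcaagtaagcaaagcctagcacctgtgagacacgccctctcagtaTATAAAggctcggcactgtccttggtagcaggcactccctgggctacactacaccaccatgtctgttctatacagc
Krt77: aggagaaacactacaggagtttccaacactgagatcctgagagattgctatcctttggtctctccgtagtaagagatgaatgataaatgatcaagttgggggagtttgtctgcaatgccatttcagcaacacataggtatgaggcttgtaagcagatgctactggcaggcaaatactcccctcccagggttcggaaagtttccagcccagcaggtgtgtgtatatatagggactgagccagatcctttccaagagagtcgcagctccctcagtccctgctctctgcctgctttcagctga
Krt8: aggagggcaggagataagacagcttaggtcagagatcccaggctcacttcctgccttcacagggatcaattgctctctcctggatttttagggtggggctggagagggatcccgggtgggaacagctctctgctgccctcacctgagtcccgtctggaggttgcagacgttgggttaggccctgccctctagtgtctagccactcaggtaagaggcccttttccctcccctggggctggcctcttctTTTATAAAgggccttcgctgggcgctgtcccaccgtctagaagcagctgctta

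TATAAA, the core of a TATA box, occurred in the windows of 18 of 32 keratins that had one, against 13.6% of all 32851 windows. In Krt10 it began 26 bases before the start, in Krt42 19 bases after it, and in Krt72 203 bases before it on the other strand. The windows of 6 of the 32 keratins, Krt10 and Krt14 among them, lie inside the gene's span in the RefSeq table, so that other annotated transcripts may start further upstream. Of the 26 whose window lies at the end of the span, a split made after seeing the data, 16 held TATAAA. Krt5, Krt77, Krt79 and Krt23 were not among them. Neither were Krt7, Krt13, Krt18, Krt24, Krt75 and Krt82, which were not wholly lower. The AP-1 motif TGANTCA was found in 1 of 32 keratin windows (Krt13) and in 7.81% of all windows. The GC box GGGCGG was found in 2 of 32 (Krt7 and Krt75), against 35.7% of all windows. Motifs were searched on both strands. A match describes these letters and is not a binding site. Only the exact letters TATAAA were sought, so their absence does not show that a window lacks a TATA box. Near matches, such as tatatata in the Krt77 window, were not counted.

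The largest differences were in keratins known from skin. Krt5 was 4.72 times and Krt10 2.69 times lower in D257A than in WT cochleae. Krt14, Krt1 and Krt77 were lower too, with measured folds of 14.2, 6.49 and 8.32 that are uncertain because 2 or more of their D257A signals lay under the level at which probe sets were tested. Krt15 was lower on every D257A array as well. Of the 48 keratins, 18 were bright enough to be tested (among the 22518 brighter of 45037 probe sets, from a mean signal of 577 upwards). Of these, 8 passed an adjusted p of 0.05 in limma, all lower in D257A cochleae, while of all 11871 genes tested 1.66% passed as lower, and 2.32% in either direction. No keratin passed as higher, against 0.657% of those genes. Of the 18, 9 had all 5 D257A signals below all 5 WT signals and none had them above, against 3.52% and 1.77% of genes tested. Krt1, with all 5 D257A signals under 577, and Krt14, with 4 of 5, reached the tested set through their WT signals. So did Krt77 and Krt79, with D257A means of 500 and 510 (Krt79 is not among the 8). The 8 of 18 and the 9 of 18 are therefore descriptions of these probe sets. In the fit with no filter, 8 of the 48 were called lower (Krt15 in place of Krt6a), against 1.05% of 18193 genes. The median log2 fold change of the 48 was -0.09, against 0.03 for those genes. Over all 48, dim ones included, 10 had all 5 D257A signals below all 5 WT signals, against 2.8% of 18193 genes. None of the 48 had them all above, against 2.06%. A lower signal in whole tissue can mean fewer cells of a type or less RNA per cell, which cannot be told apart here.

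**Figure D1:**
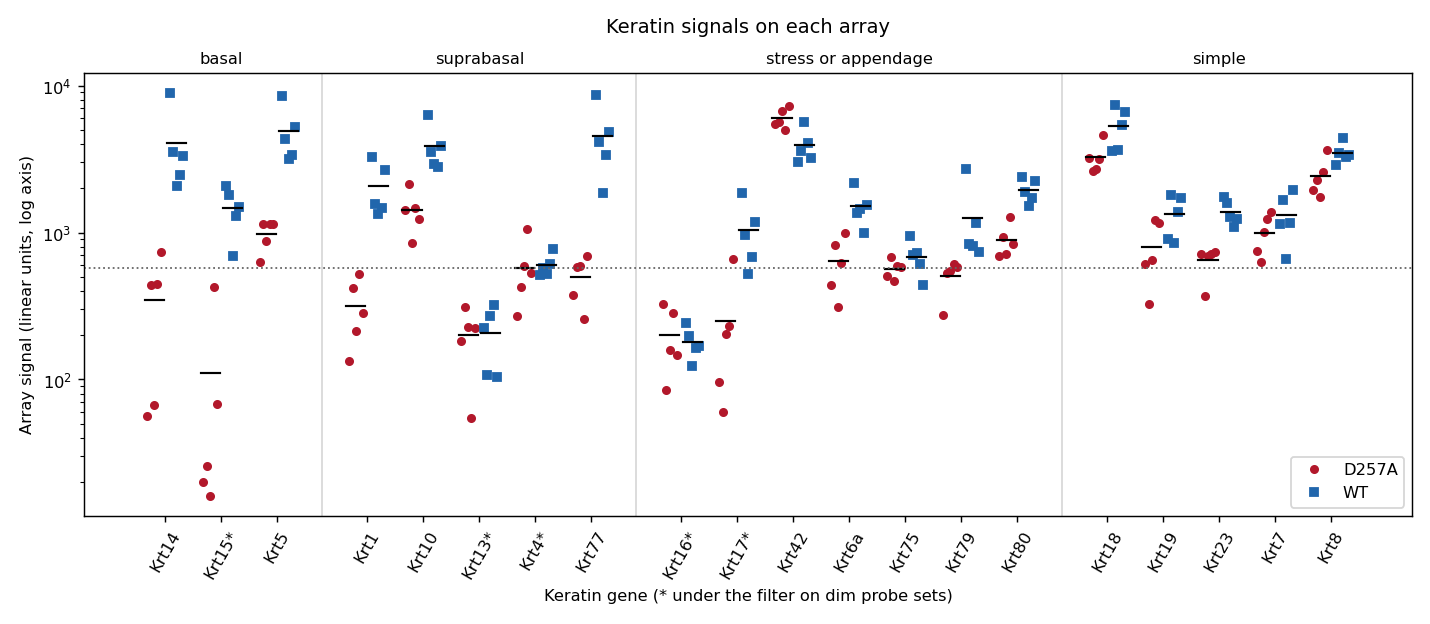
Array signal (linear units on a log axis) of 20 keratin genes on each D257A array (circles) and WT array (squares), by class, with group means as bars; the dotted line is the lowest mean signal tested (577) and an asterisk marks genes below it. Basal keratins and Krt1, Krt10 and Krt77 have every D257A array below every WT array, while Krt4, Krt13, Krt16 and the simple keratins Krt7, Krt8, Krt18 and Krt19 overlap.

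Among basal keratins, Krt5 (probe set 1424096_at), the type II chain of the basal layer, measured 628, 1134, 875, 1145 and 1136 on the D257A arrays of replicates 1 to 5, against 8482, 4325, 3168, 3368 and 5198 on the WT arrays. The highest D257A signal was far below the lowest WT signal. Krt5 averaged 984 ± 229 in D257A and 4908 ± 2156 in WT cochleae (SD, n = 5 each), a log2 fold change of -2.24 (SE 0.27, limma adjusted p = 0.00207). Krt14 (1423935_x_at), its type I partner, measured 56.1, 437, 66.8, 449.6 and 731 in D257A, against 8896, 3538, 2083, 2462 and 3299 in WT cochleae. The groups did not overlap, and 4 of the 5 D257A signals lay under 577. With no detection calls such signals may be background, which leaves the size of the fall uncertain. Its log2 fold change was -3.83 (SE 0.64, limma adjusted p = 0.0103). The ending x_at marks a probe set whose probes may also bind related sequences. A further Krt14 probe set (1460347_at) had a log2 fold change of -3.57, while the remaining one (1455573_at) measured 454 ± 167 in D257A and 357 ± 130 in WT cochleae. Krt15 (1422667_at), a basal type I keratin also used as a stem cell marker in hair follicles, measured 20.2, 25.7, 16.2, 424 and 68.6 in D257A, against 2082, 1807, 696, 1301 and 1489 in WT cochleae. D257A replicate 4 was the highest of its group and still below every WT array. Krt15 was too dim on average for the main test; in the fit with no filter its log2 fold change was -4.30 (adjusted p = 0.00594), a size as uncertain as that of Krt14 since all 5 D257A signals lay under 577.

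Of the 9 suprabasal keratins, 3 were tested, all known from epidermis, and all 3 were called lower, against 1.66% of all genes tested. Krt1 and Krt77 among them reached the tested set through their WT signals, so this count is a description of the probe sets. Krt1 (1422481_at), the type II chain of differentiating epidermis, measured 134, 417, 214, 522 and 285 in D257A, against 3262, 1553, 1332, 1477 and 2669 in WT cochleae. All D257A signals were under 577 and all WT signals above it. The log2 fold change of Krt1 was -2.70 (SE 0.36, limma adjusted p = 0.00318). Its partner Krt10 (1452166_a_at) measured 1426, 2123, 852, 1474 and 1243 in D257A, against 6266, 3508, 2935, 2778 and 3880.0 in WT cochleae (log2 fold change -1.43, SE 0.27, limma adjusted p = 0.0174). The groups were apart, and all 10 signals lay above 577. Leaving out WT replicate 5 ended the Krt10 call (adjusted p = 0.0517); leaving out any other array did not. Krt77 (1433923_at), an epidermal type II keratin next to Krt1 in the cluster, measured 377, 585, 588, 258 and 693 in D257A, against 8641, 4103, 1869.5, 3388 and 4812 in WT cochleae. The groups were far apart, with 2 D257A signals under 577 (log2 fold change -3.06, SE 0.37, limma adjusted p = 0.00205).

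The keratins of internal mucosa were not called. Krt4 (1438394_x_at) measured 272, 428, 592, 1049 and 527 in D257A, against 514, 573, 521, 613 and 768 in WT cochleae. D257A replicate 4 was above all WT arrays, and replicates 1 and 2 were below them all. Krt13 (1441863_x_at), the partner of Krt4, measured 182, 312, 228, 55.0 and 223 in D257A, against 225, 107, 270.5, 321 and 104 in WT cochleae. The 95% intervals of the log2 fold change, from the fit with no filter, were -0.86 to 0.50 for Krt4 and -1.07 to 0.92 for Krt13, and neither was bright enough for the main test. Dimmer probe sets gave -1.03 for Krt4 (1418735_at) and -0.83 and -0.17 for Krt13 (1422454_at and 1437344_x_at), all with overlapping groups. The other suprabasal members, Krt2 of the upper epidermis, Krt12 of the cornea, Krt76 of the palate and Krt78, were also dim, with overlapping groups.

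**Figure D2:**
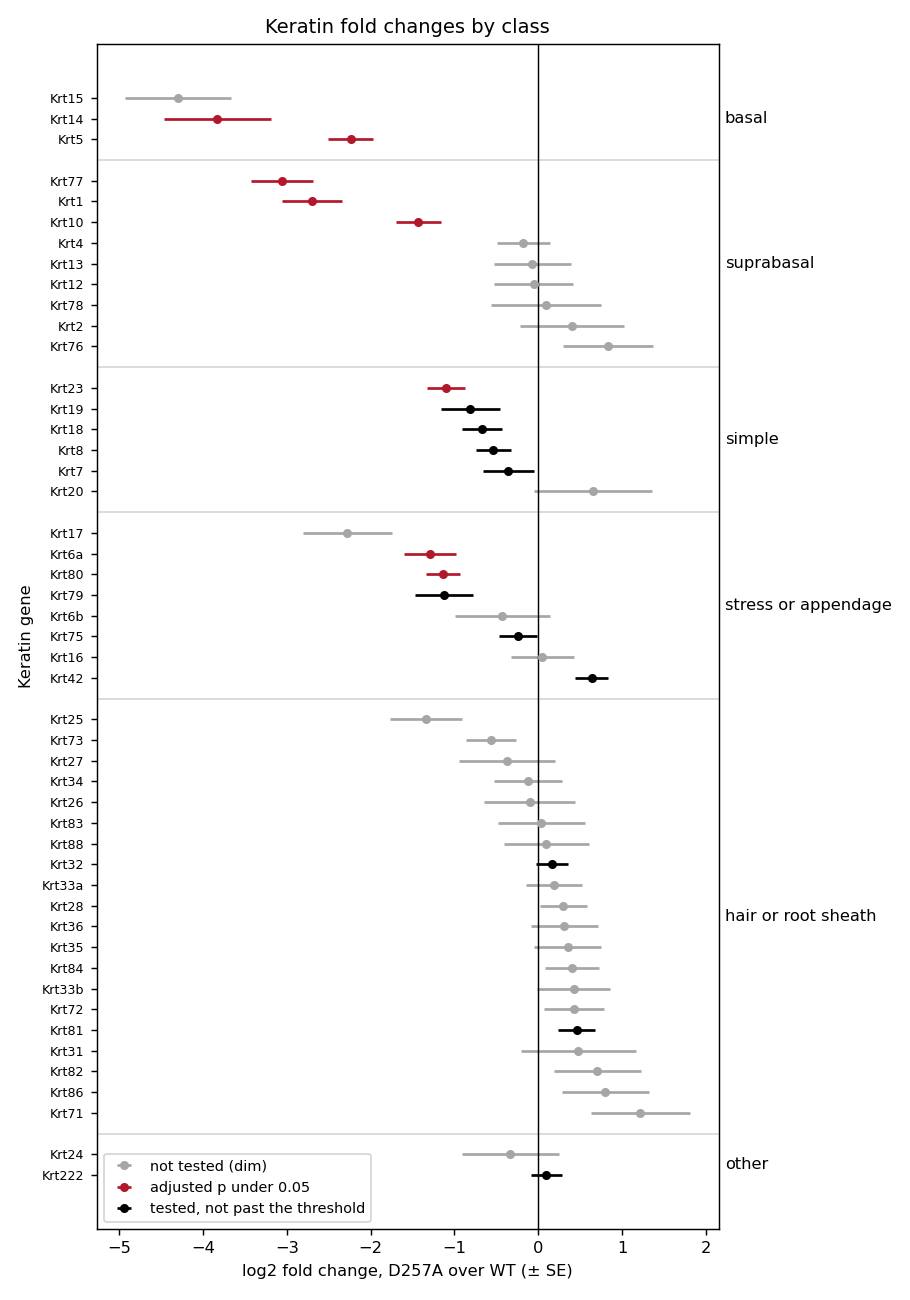
Log2 fold change (D257A over WT) with its standard error for the 48 keratins, by class; red points passed an adjusted p of 0.05, black points were tested without passing and grey points were too dim to be tested. The red points all lie left of 0: Krt5 and Krt14 among basal, Krt1, Krt10 and Krt77 among suprabasal, Krt6a and Krt80 among stress or appendage and Krt23 among simple keratins.

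Keratins of stressed epithelium and skin appendages gave a mixed picture. Krt80 (1419619_at), a type II keratin found at cell borders of several epithelia, measured 696, 931, 718, 1267 and 833 in D257A, against 2398, 1872, 1522, 1716 and 2225 in WT cochleae (log2 fold change -1.13, SE 0.20, limma adjusted p = 0.0151). Krt6a (1422784_at), which is induced in wounded epidermis, measured 436, 824, 312, 620.1 and 994 in D257A, against 2189, 1358, 1449, 996 and 1533 in WT cochleae. Both fell with groups apart, though for Krt6a the nearest arrays, D257A replicate 5 and WT replicate 4, were almost equal. The Krt6a call (log2 fold change -1.29, limma adjusted p = 0.04995) did not survive 8 of the 10 ways of leaving out an array (adjusted p = 0.125 without WT replicate 5). The size of the Krt6a fall is uncertain, since D257A replicates 1 and 3 lay under 577. Its other probe sets had log2 fold changes of -1.13 and -2.83. Krt79 (1427352_at), a keratin of the sebaceous duct in mouse skin, measured 276, 529, 549, 613 and 581 in D257A, against 2691, 836, 806, 1168 and 731 in WT cochleae. Its groups did not overlap, with WT replicate 1 far above the other WT arrays, and it was not called (log2 fold change -1.13, limma adjusted p = 0.116).

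Krt17 (1423227_at), a type I keratin of appendages and injured skin, measured 96.4, 60.1, 204, 229.9 and 660.1 in D257A, against 1859, 968, 523, 686 and 1188 in WT cochleae. D257A replicate 5 lay above WT replicate 3, so the groups overlapped. Krt17 was under the filter and had an adjusted p of 0.0559 in the fit without it (log2 fold change -2.28). It passed without D257A replicate 5 (adjusted p = 0.017), without WT replicate 3 (0.0447) and with array weights (0.0233). Krt75, a hair follicle companion layer keratin, averaged 564 ± 83.8 in D257A and 684 ± 184 in WT cochleae without passing (SD, n = 5 each; limma adjusted p = 0.631), and Krt6b was dim, with overlapping groups. Krt16 (1448932_at), a partner of Krt6a, measured 328, 85.4, 159.6, 285 and 147 in D257A, against 241, 197, 123, 163 and 169.7 in WT cochleae. These dim signals overlapped throughout, with a 95% interval of the log2 fold change from -0.76 to 0.86 and a sign that turned under both other scalings. Krt42 (1439765_x_at), a type I keratin first described in nail, had a positive log2 fold change. It measured 5465, 5622, 6759, 4948 and 7302 in D257A, against 3026, 3589, 5670.5, 4093 and 3227 in WT cochleae (log2 fold change 0.64, SE 0.19, limma adjusted p = 0.110). WT replicate 3 lay within the D257A range. Without WT replicate 3 the adjusted p was 0.0373, and without both arrays that stood apart from their groups it was 0.0376. The other Krt42 probe set (1430208_at) had a log2 fold change of 0.62.

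The simple keratins, those known from the cochlear duct, had smaller differences. Krt8 (1420647_a_at) measured 1955, 2283, 1741, 2594 and 3616 in D257A, against 2870.4, 3468, 4362, 3244 and 3353 in WT cochleae. D257A replicate 5 lay within the WT range, and the other D257A arrays lay below it. Krt18 (1448169_at), its type I partner, measured 3206, 2630.1, 2707, 3180.5 and 4623 in D257A, against 3606, 7369.6, 3661, 5364 and 6655 in WT cochleae, and again D257A replicate 5 alone reached the WT range. Neither was called: the log2 fold change was -0.54 for Krt8 (95% interval -0.98 to -0.09, limma adjusted p = 0.204) and -0.67 for Krt18 (-1.19 to -0.16, limma adjusted p = 0.168). With array weights Krt18 passed (log2 fold change -0.85, adjusted p = 0.0485). The other Krt8 probe sets were at -0.18 and -0.30. Krt19, the short type I keratin of ducts, averaged 792 ± 381 in D257A and 1328 ± 442 in WT cochleae (SD, n = 5 each; limma adjusted p = 0.262). Krt7, a type II keratin of ducts and glands, averaged 999.8 ± 319.9 in D257A and 1314 ± 499 in WT cochleae (SD, n = 5 each; limma adjusted p = 0.590). Krt23 (1418213_at), an atypical type I keratin of glandular epithelia, was the exception: it measured 714, 373, 697, 715 and 738 in D257A, against 1737, 1595, 1275, 1098 and 1239.5 in WT cochleae. Its groups were apart (log2 fold change -1.10, SE 0.23, limma adjusted p = 0.0260), and the call was lost without WT replicate 1, 2 or 5 (adjusted p of up to 0.0847 without WT replicate 2). Krt20, the intestinal member, was dim, with overlapping groups.

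Hair and root sheath keratins were mostly dim. Of 20, 18 were not tested, and the groups of all 20 overlapped. Their median log2 fold change was 0.31, and that of all 6322 genes not tested was 0.21. These medians were 0.07 and 0.005 under quantile normalization and 0.21 and 0.11 when arrays were centred on their median. The tested members were Krt81, a hair cortex keratin, and Krt32 of the hair cuticle. Krt81 averaged 1620.4 ± 391 in D257A and 1179.9 ± 312 in WT cochleae (SD, n = 5 each; log2 fold change 0.46, 95% interval -0.01 to 0.93, limma adjusted p = 0.306). Of the 2 members outside these classes, Krt222 was tested and not called (limma adjusted p = 0.840) and Krt24 was dim. Of 38 keratin-associated protein genes, which encode the matrix of the hair shaft, 2 were tested and neither was called, and the groups overlapped for all 38. With array weights Krtap10-4, 1 of the 2, passed as higher (limma adjusted p = 0.0406).

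**Figure D3:**
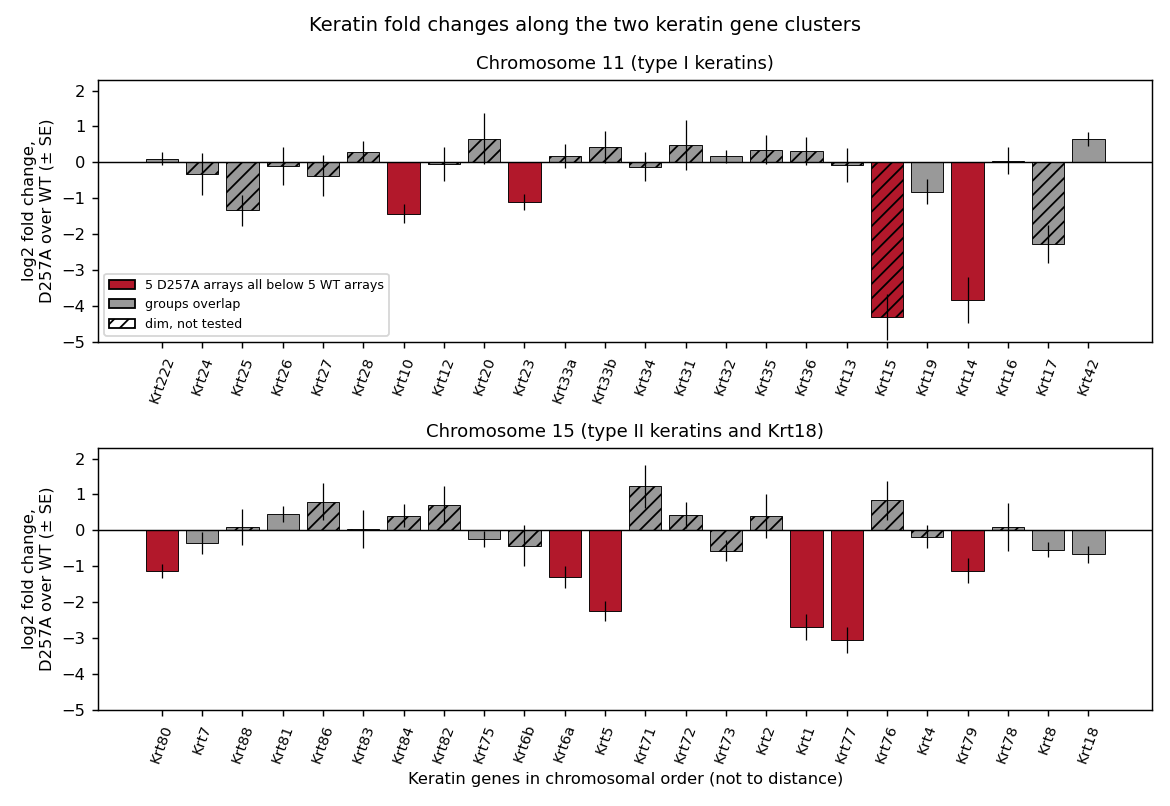
Log2 fold change (D257A over WT, with SE) of the 48 keratins in their order along chromosomes 11 and 15, not to distance; red bars are genes with all 5 D257A arrays below all 5 WT arrays, grey bars overlap, and hatched bars were too dim to be tested. The red bars stand among grey ones in both clusters, with Krt1 beside Krt77 and Krt6a beside Krt5.

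The lower keratins were not 1 block of either cluster. On chromosome 15, Krt6a and Krt5 were neighbours among the members measured, as were Krt1 and Krt77, while dim Krt71, Krt72, Krt73 and Krt2 lay between these pairs. On chromosome 11, Krt15 and Krt14 stood on either side of Krt19, and Krt16 lay between Krt14 and Krt17. The 10 keratins that were wholly lower were 4 of 25 type I and 6 of 23 type II members, against 2.8% of 18193 genes.

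For 2 of 5 filament pairs the partners differed in the size of their fall. The difference between the log2 signals of the 2 partners was taken on each array and the group means were set against each other in an exact permutation test (two-sided), adjusted over the 5 pairs by Benjamini-Hochberg. Krt14 minus Krt5 was -1.97 ± 1.24 in D257A and -0.39 ± 0.29 in WT cochleae (SD, n = 5 each), a difference of -1.59 (exact permutation p = 0.0159, adjusted 0.0397), with 4 of 5 D257A arrays below all WT arrays. Krt10 minus Krt1 was 2.21 ± 0.67 in D257A and 0.94 ± 0.25 in WT cochleae, a difference of 1.27 with all 5 D257A arrays above all WT arrays (exact permutation p = 0.00794, the smallest possible, adjusted 0.0397). By these probe sets Krt14 thus fell more than Krt5, and Krt1 more than Krt10, where Krt14 and Krt1 are the members with D257A signals mostly under 577. The Krt14 and Krt5 difference was -0.12 (adjusted 0.722) with the mean over each gene's probe sets. Both calls were lost without WT replicate 1, 2, 3 or 4 (adjusted p of up to 0.0992 and 0.0794, both without WT replicate 1). The pairs Krt18 with Krt8 (difference -0.14, exact permutation p = 0.659, adjusted 0.823), Krt16 with Krt6a (1.34, exact permutation p = 0.0556, adjusted 0.0926) and Krt13 with Krt4 (0.11, exact permutation p = 0.873, adjusted 0.873) did not pass.

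**Figure D4:**
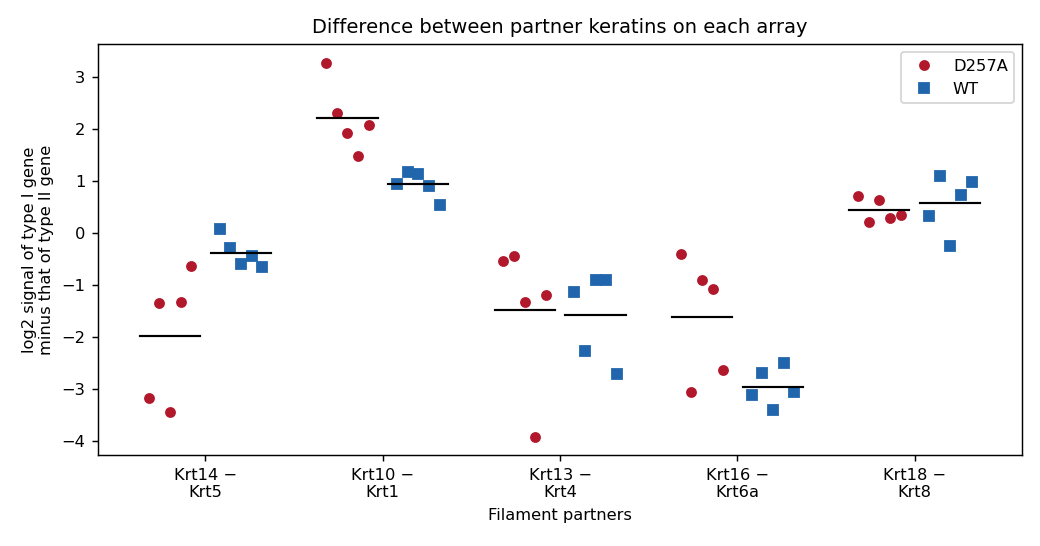
Log2 signal of the type I keratin minus that of its type II partner on each D257A array (circles) and WT array (squares), with group means as bars, for 5 pairs. D257A arrays lie lower for Krt14 minus Krt5 (4 of 5 below all WT arrays) and higher for Krt10 minus Krt1 (5 of 5 above), while Krt18 minus Krt8 overlaps.

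WT replicate 1 had the highest WT signal for all 10 wholly lower keratins, and WT replicate 3 the lowest for 6 of them. In D257A no array had such a place: replicate 4 was highest for 5 of them and lowest for 1, replicate 5 was highest for 4 and replicate 1 lowest for 5. Simple keratins followed another order. Among the 4 tested simple keratins whose groups overlap, WT replicate 2 was highest for 2 and WT replicate 1 for none. D257A replicate 5 was highest for 3 and replicate 2 lowest for 3.

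Markers of other tissues moved with the same comparison, and their part in the keratin differences was not tested. Of all genes tested, 1.66% were called lower. Of 10 tested mucosal gland markers 7 were, and their summed signal was 19507 to 53877 on D257A and 78894 to 410533 on WT arrays, with WT replicate 1 at the low end of its group, where the keratins were highest. Muc5b, Tff2 and Gp2 among the 7 had every D257A signal under 577 and reached the tested set through their WT signals. So did Myh2 and Pcp2 among the genes called below, so these counts are descriptions of the probe sets. Lcn2 of the mucosal gland list had a log2 fold change of 1.44 without passing (limma adjusted p = 0.105). Of 10 skeletal muscle markers 4 were called lower, with sums of 7919 to 259995 in D257A and 136248 to 437779 in WT cochleae; the call of 1 of them, Tnnt3, was lost on leaving out any of 8 arrays (adjusted p = 0.0958 without WT replicate 5). Of 6 cerebellum markers 1, Pcp2, was called lower; their sums were 11695 to 19934 in D257A and 8941 to 79495 in WT cochleae, and WT replicate 1 had the lowest mean centred log2 signal of all arrays for this list (-2.21). Without WT replicate 1, Gabra6 (adjusted p = 0.000292), Neurod1 (0.00091) and Calb1 (0.0266) passed as lower too, and without WT replicate 5 Pcp2 did not (0.0505). Pcp2 also did not pass with the mean over probe sets (adjusted p = 0.0679). Cochlea markers such as Coch, Otos and Gjb2 were present in both groups, with sums of 163477 to 240099 in D257A and 175861 to 246334 in WT cochleae; of 13 tested 1 was called, Kcnj10, higher, while the hair cell genes Slc26a5 and Pou4f3 and the tectorial gene Tecta were under the filter. With array weights Otog of the cochlea list passed as lower (limma adjusted p = 0.0486). Of 6 tested ciliated epithelium markers 1, Cfap43, was called lower (adjusted p = 0.0491), with sums of 12284 to 28239 in D257A and 18937 to 29422 in WT cochleae. Leaving out any of 8 arrays ended that call, and its log2 fold change of -1.23 was -0.02 with the mean over probe sets. Of 3 adipocyte markers 2 were, with sums of 20578 to 89696 in D257A and 44059 to 87856 in WT cochleae.

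**Figure D5:**
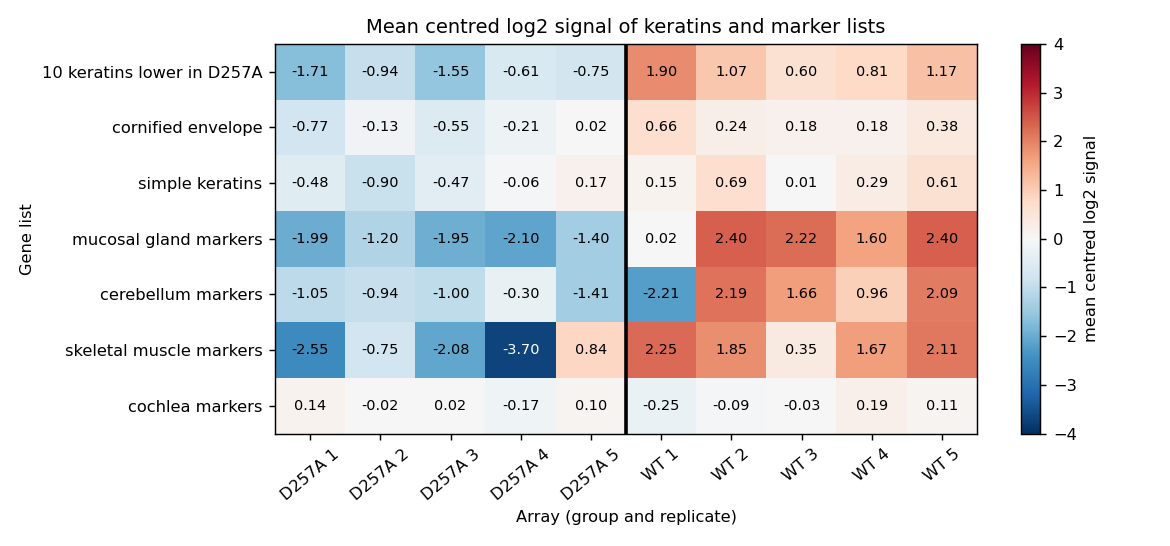
Mean over genes of log2 signals centred per gene, for the 10 keratins chosen as lower in D257A, for cornified envelope genes, tested simple keratins and 4 marker lists, on each array (D257A left, WT right). WT replicate 1 has the highest value for the lower keratins (1.90) and the lowest WT values for mucosal gland (0.02) and cerebellum markers (-2.21); the keratins in the top row were chosen for their separation.

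Genes that anchor, package and control keratins were read from lists. The share called lower over all genes tested, 1.66%, is the background for these counts. In the cornified envelope list, 1 of 6 tested genes was called lower, Lor, which encodes loricrin, the main protein of the envelope of dead surface cells. Lor measured 492, 1117, 499.9, 1038 and 657 in D257A, against 7855, 3879, 4405, 4013 and 3723 in WT cochleae (log2 fold change -2.65, limma adjusted p = 0.000896). The groups were apart, with WT replicate 1 again highest. D257A replicates 1 and 3 lay under 577, which leaves the size of the fall uncertain. Of 7 tested desmosome genes, 1 was called lower: Pkp1, a plakophilin that links keratins to the desmosome of stratified epithelia, averaged 796 ± 299 in D257A and 2379 ± 771 in WT cochleae (SD, n = 5 each; log2 fold change -1.62, limma adjusted p = 0.0188). Dsp, which encodes the linker desmoplakin of all desmosomes, had a log2 fold change of -1.05 without passing (limma adjusted p = 0.0834). With array weights Dsp (adjusted p = 0.0359) and Perp, a desmosomal membrane protein (0.0317), passed as lower. That setting called 1217 probe sets over the array in place of 513. None of 5 tested hemidesmosome and plakin genes, 7 keratinocyte regulators, 10 epithelial adhesion genes or 13 other intermediate filament genes was called. With array weights Klf5 (adjusted p = 0.0347), Esrp1 (0.0375), Epcam (0.0458) and Des (0.00318) passed as lower; the sign for Klf5 turned with the mean over probe sets. The median log2 fold changes of these 4 lists were -0.01, -0.21, -0.30 and 0.14. Desmin (Des), the muscle intermediate filament, had a log2 fold change of -3.10 (limma adjusted p = 0.0601). It also passed with arrays centred on their median (0.0482), with a pseudocount of 64 (0.0474), without D257A replicate 5 (0.0426), without WT replicate 3 (0.0257) and without both arrays that stood apart (0.0127).

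Dim members of these lists with separate groups were chosen after their values were seen. The dim members were 4 desmosome, 3 hemidesmosome and plakin, 6 cornified envelope, 6 regulator, 2 adhesion and 3 other intermediate filament genes. Of all 18193 genes, dim ones included, 2.8% were wholly lower. Col17a1, the hemidesmosomal collagen of basal keratinocytes, measured 23.6, 36.1, 41.6, 81.2 and 168.5 in D257A, against 1650.3, 876, 595, 622 and 992 in WT cochleae, with an adjusted p of 0.00243 in the fit with no filter. Trp63, the transcription factor p63 of basal epithelial cells, averaged 293 ± 144 in D257A and 761 ± 240.3 in WT cochleae (adjusted p = 0.0818 with no filter). Flg, which encodes filaggrin of the upper epidermis, averaged 111 ± 26.8 in D257A and 590.4 ± 191 in WT cochleae (adjusted p = 0.00479 with no filter). Ivl, Dsc3 and Esrp2 were also wholly lower in D257A cochleae, without passing in that fit (adjusted p = 0.110, 0.0671 and 0.144). All of these lay under the main filter, so the sizes of their differences are uncertain. The other dim members had overlapping groups. Among those others, Dsc2, Ehf, Ovol1, Zfp750, Tgm1, Tgm3, Sprr3 and Bfsp2 had positive log2 fold changes.

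Over all genes, the arrays had trimmed mean signals of 1494 to 1496, and 513 of 22518 probe sets (2.28%) passed, 233 higher and 280 lower in D257A. Centring each array on its own median put the middle log2 fold change at -0.101 over tested probe sets, and the split was then 174 higher and 479 lower, and 8 keratins were again called, all lower. D257A replicate 2 and WT replicate 3 correlated least with their own groups (mean r 0.89 and 0.914). Without both, 7 keratins were called lower and Krt42 higher.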

How the data were processed

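RNA from 10 cochlea samples had been hybridised to mouse Affymetrix arrays as biotin-labelled RNA, per the labels. The authors deposited 1 intensity per probe set and array, on a linear scale; GCOS 1.3 is the tool named in the submitters' processing notes. How background was corrected and probes were summarised is not given in the sources used, and neither detection calls nor scan dates were used. The values have nearly equal trimmed means (trim 2%), so that scaling was kept. Of 45101 probe sets, 64 with values on 1 array only were left out. Gene names came from the platform annotation, updated through RefSeq gene IDs: 34945 had 1 gene, 932 several and 9160 none, and only the first kind was named.

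The deposited intensities were taken as log2(signal + 16), which understates the change of dim genes. A model with group as its only term (D257A minus WT) was fitted to the 22518 brighter probe sets (a fraction of 0.5) by lmFit and eBayes (trend by intensity, 8 residual degrees of freedom) of limma 3.58.1, under R 4.3.3. Its two-sided p-values were adjusted over these probe sets by Benjamini-Hochberg, with a threshold of 0.05. Dim keratins were read from the same fit with no filter. Pair differences used all 252 splits of the arrays. Every keratin was named; lists contributed their 4 tested genes with the smallest p to the alternatives, and the text gives called ones and a few others. The members, classes and lists were chosen with earlier results of these data known. Replicate numbers are not said to pair the samples, so the main model had no block. Deviations from the group means correlated at -0.337 to 0.183 over the 5 numbers, which cannot show whether samples were paired. The scripts were tested on simulated data. Alternatives were other pseudocounts (1 and 64), scalings, filters, variance models, thresholds, the replicate block, the mean over probe sets and arrays left out.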

Additional observations from a re-analysis of the deposited data

Results flagged for a closer look

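In D257A replicate 2, Krt23 measured 372.7, apart from the other D257A arrays (696.6 to 738.2). In D257A replicate 1, Krt79 measured 276.5, against 528.8 to 613.1 on the other D257A arrays. On the log2(signal + 16) scale, the gap to the nearest array as a share of the group's range was 0.914 for Krt23 and 0.812 for Krt79, and both passed Dixon's limit of 0.71 for 5 samples. These were 2 of 40 groups examined on that scale, and chance flags about 1 in 20. On the linear scale of the printed signals, a scale tried after seeing the data, 7 of the 40 passed.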

How the results depend on the processing

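The 8 keratin calls became 3 among the brightest 30% of probe sets (3 of 7 keratins tested), 3 at an adjusted p of 0.01 and 5 to 8 with 1 array left out (5 without WT replicate 5). Over all probe sets the 513 calls became 322 among the brightest 30%, 1217 with array weights (where Krt18 passed as lower and Krt42 as higher, making 10 keratins), 1076 at an adjusted p of 0.1, 92 at 0.01 and 197 to 571 with 1 array left out. With the replicate block, 188 probe sets and 5 keratins (Krt1, Krt5, Krt10, Krt14 and Krt77) were called and Pkp1 was not (adjusted p = 0.0838). Whether the replicate numbers pair samples is not stated. Keratins with separate groups numbered 9 to 15 over all settings run. Krt14 minus Krt5 ranged from -1.93 to -1.23 with 1 array left out, was -1.8 without both arrays that stood apart (adjusted 0.0952) and -0.122 with the mean over probe sets. Krt10 minus Krt1 ranged from 1.0 to 1.45 and was 1.29 without both arrays (adjusted 0.0952). Without both arrays the exact test has fewer splits and its smallest possible p is larger, so a call there was harder to reach. Krt16 minus Krt6a ranged from 1.03 to 1.70, past the threshold without D257A replicate 2 (adjusted 0.0265). With the mean over probe sets it was 1.8, also past the threshold (adjusted 0.0198). Krt13 minus Krt4 ranged from -0.175 to 0.713 and was -0.0154 under quantile normalization. Log2 fold changes that changed sign were Krt16 (-0.052 centred on the median, -0.192 under quantile normalization, -0.151 to 0.289 with 1 array left out), Krt13 (0.0687 with array weights, -0.262 to 0.290), Krt4 (-0.423 to 0.0488), Dst (-1.08 with the mean over probe sets, -0.033 to 0.311), Klf5 (0.197) and Klf4 (0.061), the last 2 with the mean over probe sets. The causes were not tested. Krt1, Krt5, Krt14, Krt77 and Krt80 were past the threshold whichever array was left out, Krt80 narrowly without WT replicate 5. So was dim Krt15 in the fits with no filter. Without detection calls, signals under 577 were not shown to be above background.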
